A study of Homo sapiens with 3 samples.

Results

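Type I interferon stimulated genes were followed in DU145, an androgen-independent line derived from human prostate cancer. The group was a fixed list of 44 genes, matched by symbol among the 58735 genes of the deposited count tables, and all 44 were found. RNA-seq covered 3 libraries. One was the control, and the other 2 carried the label PD-L1 knockdown, numbered 1 or 2. They are called here the libraries labelled knockdown 1 and knockdown 2. The study's sequencing section names such cells sh1 and sh2, but its methods list the sequence of only 1 shRNA. The study describes lentiviral pLKO.1 vectors, puromycin selection of stable cells and an empty vector as control, although its sequencing section calls the control simply DU145. Cells were grown with serum, in DMEM according to the labels and in EMEM according to the study. Each label has 1 library, and the control has no replicate. CD274, which encodes PD-L1, was counted 204, 213 and 224 times in the control, knockdown 1 and knockdown 2 libraries (the order used for 3 values throughout). The targeted RNA was thus not lower under the knockdown labels, and every direction given here is a direction between libraries so labelled. The study checked its DU145 knockdown cells by Western blot, which measures PD-L1 protein, and these libraries hold no protein values. In the count table the control is headed with the name of another gene, RBM45, and the series text names another cell line, BCPAP.

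Type I interferons are secreted proteins that bind a receptor made of IFNAR1 and IFNAR2. The receptor's kinases JAK1 and TYK2 then phosphorylate STAT2, which together with IRF9 is part of the factor ISGF3. ISGF3 binds a DNA element called the interferon stimulated response element (ISRE) and switches on a common set of genes, many of which block viruses. Many tumour cells keep a low level of these genes without added interferon, and CD274 itself can be induced by interferons.

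The ISRE was looked for in the promoters of the members because it is the element that ISGF3 binds. The RefSeq promoter table (build GRCh38.p14, 250 bases before to 50 bases after each start) held promoters of 35 of the 44 members, and 9 had none there. The letters searched were GAAA, any 2 bases and GAAA again, and for the other strand TTTC, any 2 bases and TTTC again, with overlapping matches kept. A match was present for 22 of the 35 members. Counted by promoter, 26 of 49 members' promoters (53.1%) held the motif, against 1255 of all 35116 promoters in the table (3.57%). The sites below are shown because they belong to IFI6, IFIT1 and SAMD9, which had some of the largest fold changes among members averaging 100 counts or more, to ISG15 and IFIT3, which were well counted, and to 2 members that were almost silent (BST2, RSAD2). Each is written 5′ to 3′ on the strand of its gene, with the motif in capitals.
IFI6, chr1:27672330-27672357, minus strand: gagagagggGAAAATGAAActctgcaga
IFI6, chr1:27672289-27672316, minus strand: gagagagggGAAAATGAAActgcagagt
IFIT1, chr10:89392511-89392538, plus strand: actttccccTTTCGGTTTCcctaggttt
SAMD9, chr7:93118097-93118124, minus strand: ctgagaaatGAAACTGAAAccaaaccta
ISG15, chr1:1013381-1013408, plus strand: cgggaaaggGAAACCGAAActgaagcca
IFIT3, chr10:89332469-89332496, plus strand: ttccatcagTTTCACTTTCctttcccct
BST2, chr19:17405736-17405763, minus strand: tgggaaactGAAACTGAAAacctaatta
RSAD2, chr2:6877623-6877650, plus strand: tgtttcaacTTTCAGTTTCacatgtgga

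The IFI6 sites shown start at positions -156 and -115 from the gene's start and open with the same letters. A further IFI6 match, not shown, starts at position -93 and opens with others. Members with the motif were found at high and low levels. Of the 22 members with a match, 16 had a mean of at least 100 counts over the 3 libraries and 4 had a mean under 10 counts. The median log2 fold change of the libraries labelled knockdown over the control was -0.10 for the 20 tested members with a match and -0.03 for the 11 tested members without. A match describes the letters only and does not show that a factor binds there.

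The members' mean levels ran from 0.00631 (IFI44L, on 3 counts in all) to 76.6 FPKM (ADAR). Levels between genes were compared per length, in FPKM (fragments scaled to gene length and to sequencing depth). ADAR, the enzyme that edits adenosine to inosine in double-stranded RNA, was the highest, with 75.4 to 77.4 FPKM in the 3 libraries. It alone took 42.9 to 43.4% of all counts on the 44 genes. ISG15, a ubiquitin-like protein that is joined to other proteins, followed with 35.7, 40.8 and 44.3 FPKM, and IFITM3, a membrane protein that hinders virus entry, with 34.1, 36.1 and 39.7 FPKM. A mean of at least 10 FPKM was reached by 9 members and a mean of at least 1 FPKM by 30. The median over all 44 members, including 5 with fewer than 10 counts in all, was 3.63 FPKM. It was 2.61 FPKM over the 19849 tested genes, which leave out genes with so few counts.

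**Figure D1:**
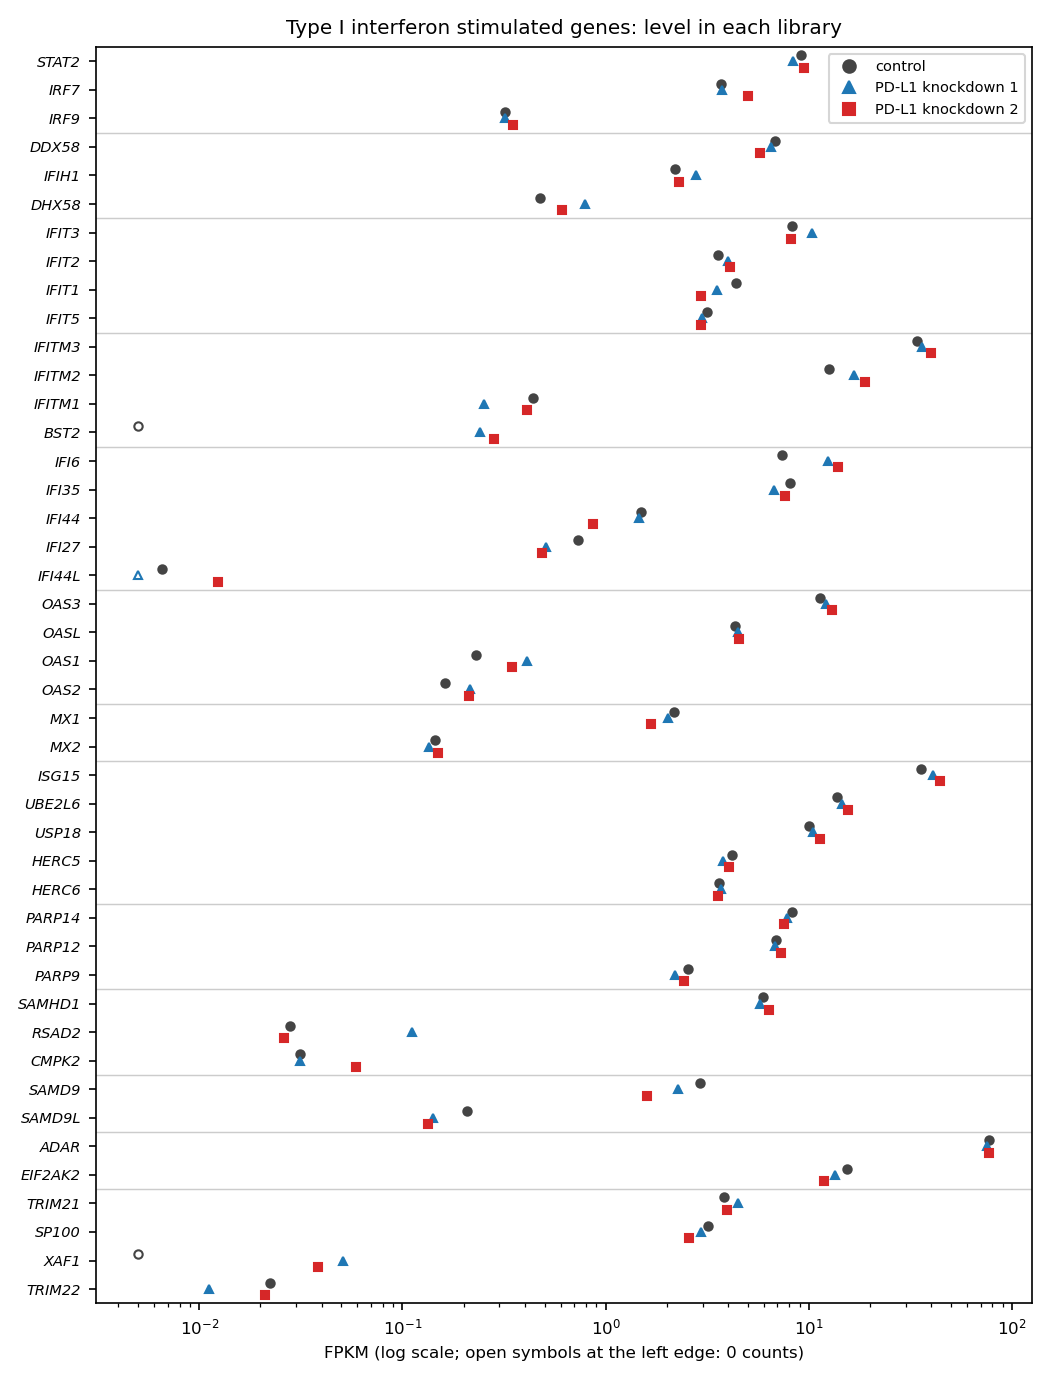
Level of each of the 44 genes in the control library (circles) and in the libraries labelled PD-L1 knockdown 1 (triangles) and 2 (squares), in FPKM on a log scale and grouped by role. The libraries lie close together for most genes with over 1 FPKM, from ADAR at 75.4 to 77.4 FPKM downwards, whereas genes near the left edge rest on a few counts.

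Several classical members had very few counts. BST2 (tetherin, which holds budding viruses at the cell surface) had 0, 4 and 5 counts. XAF1, a factor linked to apoptosis, had 0, 5 and 4 counts. A count of 0 in the control still allows a level of up to 0.204 CPM (3 counts, counting error only). The exact 95% counting interval of the ratio to the control began at 0.663 and 0.856 for BST2 and at 0.920 and 0.617 for XAF1, so a difference was not detectable at this depth. IFI44L had at most 2 counts in any library, TRIM22 at most 2 and CMPK2 at most 4. These 5 genes had fewer than 10 counts in all and were not tested. RSAD2 (viperin) had 2, 8 and 2 counts, so that only the library labelled knockdown 1 stood out, and its counting interval of 0.802 to 38.8 included 1.

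The summed level of the 44 genes differed little between libraries. It was 1750 CPM (counts scaled to the library total) in the control, 1709 CPM in the library labelled knockdown 1 and 1720 CPM in the library labelled knockdown 2. Without ADAR, the summed counts, scaled by edgeR's TMM method, were 0.987 and 0.980 times those of the control. Fewer cells with these RNAs and less RNA per cell cannot be told apart in such bulk samples. The 39 members with at least 10 counts in all had a median log2 fold change of 0.02, with quartiles of -0.16 and 0.17, where all tested genes had a median of 0.00 and quartiles of -0.21 and 0.24. Of the 39, 21 lay above 0 and 18 below. When trends with gene length and GC content were removed, 16 lay above and 23 below.

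No member passed the test. With edgeR's quasi-likelihood test and a Benjamini-Hochberg adjusted p under 0.05 over all genes, 0 of 39 members were higher and 0 were lower, where 0.247% of all tested genes were higher and 0.106% lower. The lowest adjusted p was 0.0955, that of IFI6. A second limit, a raw p under 0.05 together with a log2 fold change beyond 1 in size, was also passed by 0 members, where 1.54% of all tested genes passed upwards and 0.942% downwards. At an unadjusted p under 0.05 alone, IFI6 and IFITM2 were higher and SAMD9, IFIT1 and EIF2AK2 lower, which is 2 and 3 of 39 members where 6.82% and 4.92% of all genes were found. The DESeq2 Wald test called 0 members at the adjusted p and 1 at the unadjusted p. The spread in these tests comes from libraries named for different shRNAs, since the control is single, and no p covers the variation between control cultures.

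Library by library, the 29 members with a mean of at least 100 counts were compared with the control at a ratio of 1.5. In the library labelled knockdown 1 only IFI6 was over 1.5-fold higher (1 of 29, where 0.829% of the 10861 genes of that count were), and 0 members were over 1.5-fold lower (0.405% of genes). In the library labelled knockdown 2 IFI6 and IFITM2 were over 1.5-fold higher (2 of 29, where 1.92% of genes were) and SAMD9 was over 1.5-fold lower (1 of 29, where 1.54% of genes were). IFIT1, with a ratio of 0.669, lay just short of that limit. Ratios ran from 0.787 to 1.68 in the library labelled knockdown 1 and from 0.548 to 1.87 in the library labelled knockdown 2. These are single libraries, without a replicate check.

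**Figure D2:**
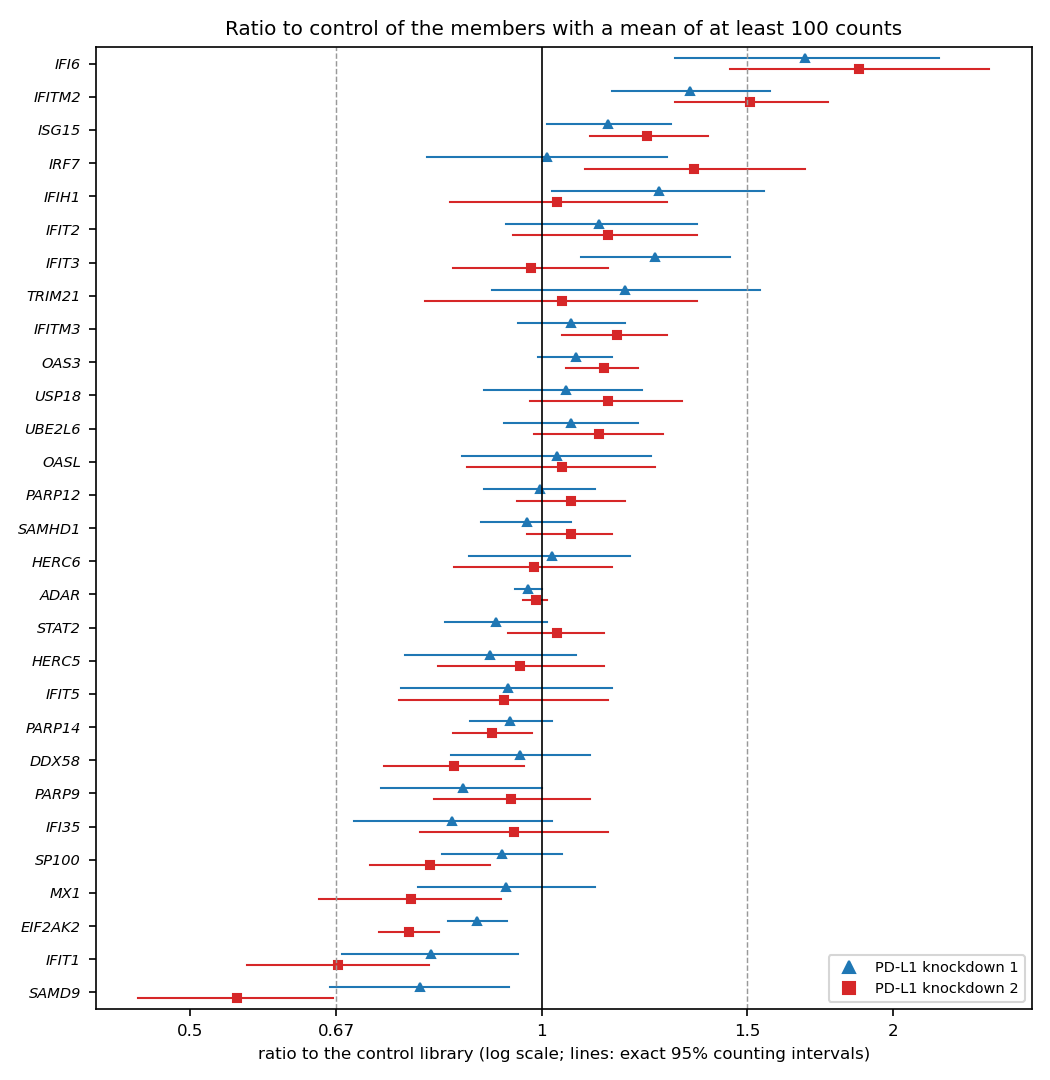
Ratio to the control library of the 29 members with a mean of at least 100 counts, for the libraries labelled PD-L1 knockdown 1 (triangles) and 2 (squares), on a log axis, with exact 95% counting intervals as lines and a ratio of 1.5 in either direction dashed. IFI6 and IFITM2 stand at the top, SAMD9 and IFIT1 at the bottom, and ADAR, with the most counts, at 0.973 and 0.988.

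IFI6 and SAMD9 were at the 2 ends of the well-counted members (those averaging 100 counts or more). IFI6 encodes a small membrane protein of mitochondria and endoplasmic reticulum and lies on chromosome 1 from 27666061 to 27672218. It had 95, 159 and 190 counts. The control was thus the lowest of the 3, with ratios of 1.68 (counting interval 1.30 to 2.19) and 1.87 (1.45 to 2.42). The log2 fold change with its standard error (SE) was 0.83 (SE 0.24 and, by edgeR, adjusted p = 0.0955). An absolute log2 fold change at least as large was seen in 0.157% of the genes counted 100 times or more on average. SAMD9, on chromosome 7 from 93099513 to 93118023, encodes a cytoplasmic protein that restricts poxviruses and cell growth. It had 295, 231 and 173 counts, highest in the control and lowest in the library labelled knockdown 2. The ratios were 0.787 (counting interval 0.659 to 0.937) and 0.548 (0.451 to 0.663), and the log2 fold change was -0.59 (SE 0.19 and, by edgeR, adjusted p = 0.162). Its neighbour and paralog SAMD9L had 22, 15 and 15 counts, with both counting intervals including 1.

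Of the ISGF3 subunits, STAT2 had 831, 756 and 915 counts. The libraries labelled knockdown thus lay on either side of the control, and the log2 fold change was -0.04 (SE 0.14 and, by edgeR, adjusted p = 0.942, with a 95% interval of the fold of 0.802 to 1.18). IRF9 had only 18, 18 and 21 counts. It shares 48.4% of its exon bases with AL136295.5, a gene on the same strand that had 7 to 13 counts, so that the count of IRF9 is uncertain. IRF7, which drives the interferon genes themselves, had 144, 145 and 208 counts. Here only the library labelled knockdown 2 stood out, with a ratio of 1.35 (counting interval 1.09 to 1.68) against 1.01 in the library labelled knockdown 1.

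The RNA sensors had log2 fold changes on either side of 0, from -0.15 to 0.56. DDX58 (RIG-I), which senses viral RNA ends, had 440, 420 and 396 counts, at a log2 fold change of -0.15 (SE 0.17 and, by edgeR, adjusted p = 0.767), or -0.01 with length and GC trends removed. IFIH1 (MDA5), a sensor of long double-stranded RNA, had 167, 209 and 185 counts and was highest in the library labelled knockdown 1. DHX58 (LGP2), the regulator of the other two, was counted 27, 45 and 37 times, lowest in the control, with a log2 fold change of 0.56 (SE 0.45 and, by edgeR, adjusted p = 0.660).

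Members of the IFIT family, tetratricopeptide proteins that bind viral RNA or its translation machinery, had fold changes on either side of 0, although their genes lie side by side on chromosome 10. IFIT1 had 300, 240 and 215 counts, with ratios of 0.804 (counting interval 0.675 to 0.955) and 0.669 (0.559 to 0.8). Its control was the highest of the 3, and the log2 fold change was -0.44 (SE 0.19 and, by edgeR, adjusted p = 0.324). IFIT2, in contrast, had 218, 244 and 265 counts, with the control lowest and both counting intervals including 1. IFIT3 had 324, 404 and 340 counts, and its ratio of 1.25 in the library labelled knockdown 1 (counting interval 1.08 to 1.45) was not found in the library labelled knockdown 2, where it was 0.980 (0.839 to 1.14). Over both libraries the log2 fold change of IFIT3 was 0.16 (SE 0.18 and, by edgeR, adjusted p = 0.777). IFIT5, with 189, 176 and 188 counts, was nearly level.

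The IFITM proteins, which sit in membranes and hinder virus entry, are encoded by neighbouring genes on chromosome 11. IFITM2 had 286, 382 and 463 counts, lowest in the control, with ratios of 1.34 (counting interval 1.15 to 1.57) and 1.51 (1.30 to 1.76). Its log2 fold change was 0.51 (SE 0.18 and, by edgeR, adjusted p = 0.198). IFITM3 had 682, 720 and 845 counts, at a log2 fold change of 0.15 (SE 0.15 and, by edgeR, adjusted p = 0.728), or -0.05 with length and GC trends removed. IFITM1 had 7, 4 and 7 counts. Reads of these genes cannot be fully told apart: IFITM1, IFITM2 and IFITM3 share 35.3%, 45.2% and 56.0% of their 31-base words with other genes, and the annotated exons of IFITM1 and IFITM2 overlap. Summed over the 3 genes, where a read moved between them does not count, the totals were 975, 1106 and 1315. The ratios to the control were 1.14 and 1.26. The sum does not deal with words shared with any gene outside the 3.

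The other tested IFI genes had log2 fold changes below 0. IFI27, which encodes a mitochondrial relative of IFI6, had 45, 31 and 32 counts, highest in the control, and a log2 fold change of -0.56 (SE 0.42 and, by edgeR, adjusted p = 0.637). IFI35 had 236, 197 and 239 counts. For IFI35 the log2 fold change of -0.16 became -0.40 with length and GC trends removed, the lowest of the well-counted members under that correction. IFI44 had 45, 44 and 28 counts, with the library labelled knockdown 2 apart from the other two and a log2 fold change of -0.36 (SE 0.41 and, by edgeR, adjusted p = 0.779), which was -0.03 when that library was left out.

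All 4 OAS genes, whose products make the 2′-5′ oligoadenylates that activate RNase L (OASL excepted, which lacks that activity), had log2 fold changes above 0, from 0.05 to 0.70, and none passed the test. With length and GC trends removed, OASL was at -0.01 and the others stayed above 0. OAS3 had by far the most counts, 1402, 1491 and 1696, and a log2 fold change of 0.14 (SE 0.13 and, by edgeR, adjusted p = 0.710, with a 95% interval of the fold of 0.925 to 1.31). OAS1 had 17, 30 and 27 counts, the control lowest, with both counting intervals including 1 and a log2 fold change of 0.70 (SE 0.55 and, by edgeR, adjusted p = 0.650). OASL, with 227, 233 and 252 counts, and OAS2, with 15, 20 and 21, completed the family. Of the dynamin-like GTPases, MX1 had 277, 257 and 229 counts, at a log2 fold change of -0.23 (SE 0.19 and, by edgeR, adjusted p = 0.662), and MX2 had 28, 26 and 31 counts.

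In the ISG15 system, the 5 genes had log2 fold changes within -0.10 to 0.25. Of the 5, 4 were above 0, though that of HERC6 rounds to 0.00. With length and GC trends removed, UBE2L6 was at -0.08, HERC5 at -0.02, and USP18 and HERC6 at 0.03. ISG15 itself, on chromosome 1, had 499, 568 and 659 counts, with ratios of 1.14 (counting interval 1.01 to 1.29) and 1.23 (1.1 to 1.39). The control was the lowest, and the log2 fold change was 0.25 (SE 0.16 and, by edgeR, adjusted p = 0.549), which became -0.02 when length and GC trends were removed. The conjugating enzyme UBE2L6 had 451, 475 and 540 counts, and USP18, the protease that removes ISG15 and also restrains the receptor, had 316, 329 and 385. USP18 shares 28.8% of its 31-base words with its copy USP41, which had at most 2 counts. The ligase HERC5 had 297, 267 and 305 counts, and its relative HERC6 had 312, 316 and 329, a log2 fold change of 0.00 (95% interval of the fold 0.784 to 1.28).

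The remaining antiviral effectors were among the best counted members. EIF2AK2 (PKR), the kinase that stops translation on sensing double-stranded RNA, had 2452, 2150 and 2020 counts, highest in the control. Its ratios were 0.881 (counting interval 0.831 to 0.934) and 0.769 (0.725 to 0.816). The log2 fold change was -0.28 (SE 0.12 and, by edgeR, adjusted p = 0.328), and without length and GC trends it was -0.09. ADAR, which limits the activation of that kinase, had 11141, 10797 and 11790 counts, at a log2 fold change of -0.03 (SE 0.11 and, by edgeR, adjusted p = 0.947, with a 95% interval of the fold of 0.848 to 1.13). SAMHD1, which breaks down deoxynucleotides, had 994, 961 and 1127 counts, with the control in the middle and a log2 fold change of 0.02 (SE 0.14 and, by edgeR, adjusted p = 0.968).

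The ADP-ribosyltransferase genes PARP14 (1289, 1206 and 1252 counts), PARP12 (640, 635 and 727 counts) and PARP9 (339, 289 and 342 counts) had log2 fold changes from -0.15 to 0.04. That of PARP14 was -0.11 (SE 0.13 and, by edgeR, adjusted p = 0.779). SP100, a scaffold of nuclear bodies, had 596, 549 and 512 counts, highest in the control, and the antibody receptor TRIM21 had 109, 128 and 121 counts, lowest in the control. Their log2 fold changes were -0.21 (SE 0.16) for SP100 and 0.15 (SE 0.25 and, by edgeR, adjusted p = 0.865) for TRIM21.

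The 29 members with a mean of at least 100 counts had a median log2 fold change of 0.02 and quartiles of -0.15 and 0.15, where all 10861 genes of that count had 0.00, -0.14 and 0.16. A log2 fold change within 0.2 of 0 was found for 69.0% of these members and for 63.6% of these genes.

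**Figure D3:**
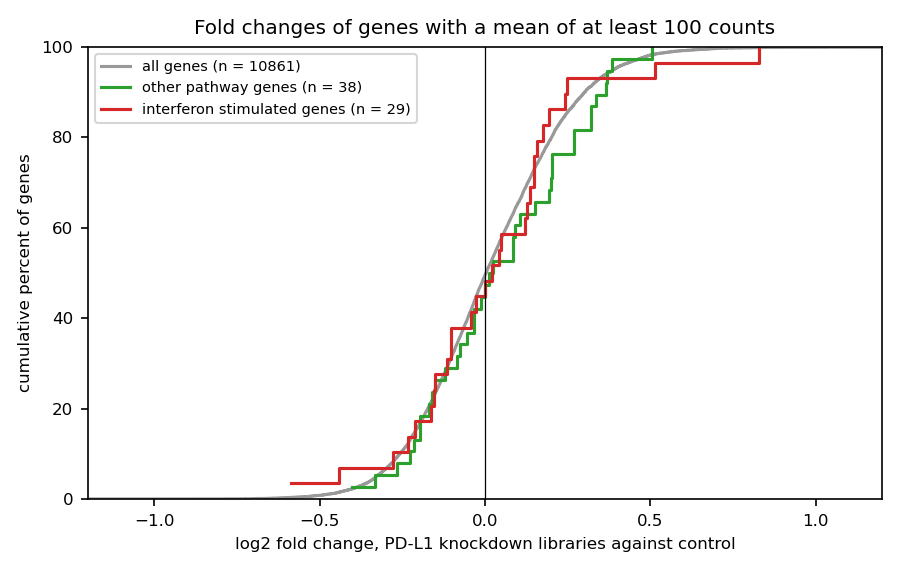
Cumulative percent of genes by log2 fold change of the knockdown-labelled libraries over the control, for genes averaging 100 counts or more: all 10861 genes (grey), 38 other genes of the interferon pathway (green) and 29 interferon stimulated genes (red). The red curve follows the grey one around the medians of 0.02 and 0.00, and single genes (SAMD9, IFIT1, IFITM2 and IFI6) make up its ends, from -0.59 to 0.83.

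Upstream of the members, ligand RNA was scarce in every library. Of 17 type I interferon genes, 11 had no count in any library and IFNB1 had 1, 0 and 0 counts. IFNE, an interferon of epithelia that is not induced by viruses, was the exception with 60, 39 and 24 counts, at a log2 fold change of -0.97 (SE 0.39 and, by edgeR, adjusted p = 0.287), and IFNA1 had 8, 4 and 5 counts. The type III ligand genes IFNL1, IFNL2 and IFNL3 together had at most 5 counts in a library.

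The receptor genes were all counted. IFNAR1 had 1787, 1632 and 1879 counts, at a log2 fold change of -0.07 (95% interval of the fold 0.804 to 1.12). IFNAR2 had 96, 56 and 86 counts, lowest in the library labelled knockdown 1, with a log2 fold change of -0.49 (SE 0.29 and, by edgeR, adjusted p = 0.522). It shares 44.2% of its exon bases with AP000295.1, a gene on the same strand with 0 counts, and 39.1% with the antisense gene IL10RB-DT. IFNLR1, the chain specific to type III interferon, had 57, 90 and 85 counts, at a log2 fold change of 0.57 (SE 0.31).

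The kinases were among the best counted genes of the pathway. JAK1 had 1911, 1917 and 2031 counts (log2 fold change 0.00, SE 0.12), and TYK2 had 1874, 2034 and 2432 (0.20, SE 0.12). Over the whole list of 76 other pathway genes, 51 had enough counts to be tested, and edgeR's quasi-likelihood test called none of them in either direction (0 and 0) at an adjusted p under 0.05 (0.247% and 0.106% of all tested genes). At an unadjusted p under 0.05, 6 were higher and 2 lower (6.82% and 4.92% of all tested genes), and DESeq2 called 0 at the adjusted p. The list's median log2 fold change was 0.02. The 2 largest positive values among those averaging 20 counts or more were those of IFNLR1 and of UBA7, the activating enzyme of ISG15, with 19, 24 and 34 counts. TREX1 was listed at 0 in every library, but all of its exon bases lie within ATRIP, which had 267 to 291 counts, so its level cannot be read.

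The members' fold changes lay along gene length and GC content, as did those of all genes, though more closely for length. The Pearson correlation with log2 length was -0.65 for the 29 well-counted members and -0.28 for all genes of that count. With GC content it was 0.58 and 0.63. The 15 well-counted members with the lower GC content had a median log2 fold change of -0.10 and the other 14 one of 0.13, where all genes split the same way had -0.11 and 0.14. For length, the 15 shorter members had a median of 0.15 and the 14 longer ones -0.07, against 0.07 and -0.05 for all genes. IFI6, with a listed length of 865 bases, was shorter than all but 1.22% of these genes, ISG15 than all but 1.45%, and SAMD9, at 36.0% GC, was richer in G and C than only 3.31% of them. With both trends removed, the log2 fold changes were 0.66 for IFI6, 0.35 for IFITM2, -0.37 for SAMD9 and -0.37 for IFIT1, and the well-counted members ran from -0.40 to 0.66. Among the well-counted members, IRF7 then stood at -0.01, IFIT5 at 0.09 and PARP12 at -0.04, on the other side of 0 from before. The lowest adjusted p of a member was then 0.777. What part length and GC content have in these differences was not tested.

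**Figure D4:**
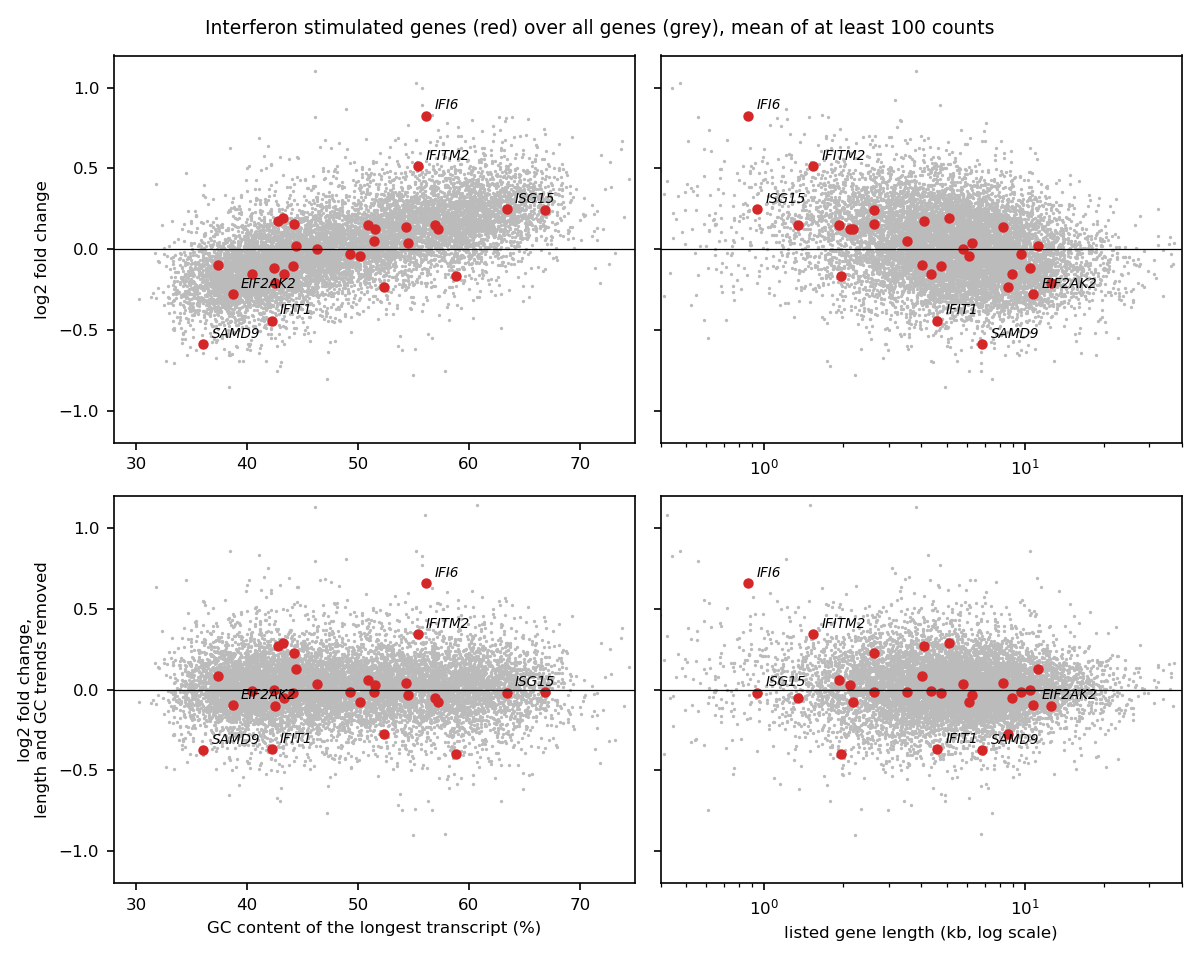
Log2 fold change of the knockdown-labelled libraries over the control, plotted against GC content of each gene's longest transcript (left, percent) and listed gene length (right, kilobases on a log scale), before (top) and after (bottom) trends with both were removed. Red points are the 29 members and grey points all genes averaging 100 counts or more, with 46 genes that lie beyond an axis or have no GC value not drawn in full. IFI6 goes from 0.83 at the top to 0.66 at the bottom and SAMD9 from -0.59 to -0.37, while ISG15 goes from 0.25 to -0.02.

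The libraries held 14733088 to 15786457 counts, with 24735 to 25617 genes detected. The cells had the epithelial markers EPCAM, KRT8, KRT18 and CDH1 in every library, while KLK3, a marker of androgen-responsive prostate epithelium, had 0 counts. Of 4 leukocyte markers, CD3E had 0 counts and PTPRC at most 3, but the sum of the 4 was 75 in the control and 163 and 174 in the libraries labelled knockdown 1 and 2, most of it CD79A (60, 157 and 163 counts). The summed counts of fibroblast markers (101, 98 and 152), endothelial markers (4, 11 and 5) and thyroid markers (28, 40 and 53) were low. Nearly all of the fibroblast sum was COL1A1 (101, 98 and 149 counts), and PAX8 (13, 28 and 29 counts) was the highest thyroid marker in each library. What part these markers have in the members' differences was not tested.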

How the data were processed

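RNA-seq of 3 libraries, made from mRNA selected on oligo(dT) beads, was used. The authors deposited the count of reads on each of 58735 genes, without normalization, and FPKM values, which were checked to be counts over listed length with 1 constant per library. The submitters' processing notes name Bowtie2 2.0.6, TopHat2 2.0.9, Cufflinks 2.1.1 and Cuffdiff 2.1.1, and the counting tool and its strand setting are not given in the sources used here. All gene identifiers, positions and lengths equal those of GENCODE 29 (GRCh38), where a listed length is that of all exons together, which lowers the FPKM of genes with many transcripts.

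A total of 10 counts over the 3 libraries was required, which left 19849 genes for edgeR 4.0.16 under R 4.3.3 (TMM, glmQLFit, glmQLFTest, Benjamini-Hochberg adjustment), with both knockdown-labelled libraries set against the control library. This leaves 1 residual degree of freedom, and the fit (common dispersion 0.00719) took genes of like count to have equal spread. DESeq2 1.42.0 was an alternative. The fits were tested on simulated data. Ratios of single libraries are TMM-scaled, with exact 95% counting intervals (scipy 1.17.1) that, like the limit of 3 counts, cover counting error only, since PCR copies were not marked by molecular identifiers. Nothing states that the 2 libraries are separate cultures of one condition beyond their shRNA numbers, so p-values measure only the spread between these libraries. Length and GC trends were removed as means of 20 classes of each. Intervals of a fold are 95% normal intervals from the standard error.

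The members, roles and pathway list were chosen with earlier results of these data known. Statistics in full are given for the 5 tested members with the largest positive and the 5 with the largest negative log2 fold change among those whose mean count was at least 20, and for the member with the highest FPKM of each role. Of the pathway list, IFNAR1, IFNAR2, JAK1, TYK2 and the 2 largest values in each direction at that mean count were named, and the other pathway genes in the text were chosen after their values were seen. Some genes of the lists are not reported here.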

Additional observations from a re-analysis of the deposited data

How the results depend on the processing

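The counts of members and of pathway genes past the adjusted p, and of members past a raw p under 0.05 with a log2 fold change beyond 1, were 0 under edgeR with TMM, DESeq2 size factors or library totals, with other filters on low counts, with length and GC trends removed, with robust moderation of the spread and with the DESeq2 Wald test. Over all genes, however, the number at an adjusted p under 0.05 was 70 with TMM, 5 with length and GC trends removed and 6 with the DESeq2 Wald test, and the cause was not tested. The median log2 fold change of the members was 0.02, moved to -0.01 with length and GC trends removed, and ran from 0.00 to 0.04 when 1 library labelled knockdown was left out. In the library labelled knockdown 1, the members over 1.5-fold higher numbered 1 where a mean count of 100 was required, 3 where it was 20 and 4 among all tested genes, and those lower 0 and, among all tested genes, 1. In the library labelled knockdown 2, those lower numbered 1, 3 and 4 in the same order, as more thinly counted genes entered. With length and GC trends removed, the log2 fold change of ISG15 turned to -0.02 and that of IFITM3 to -0.05. Leaving out 1 library labelled knockdown, with no test possible in the remaining 1 against 1, gave log2 fold changes from -0.04 to 0.09 for SAMHD1, from -0.03 to 0.32 for IFIT3 and from -0.13 to 0.04 for STAT2. It also gave -0.78 to -0.03 for IFI44, -0.37 to -0.10 for MX1, 0.06 to 0.24 for TRIM21, -0.25 to -0.06 for DDX58, -0.86 to -0.35 for SAMD9, 0.36 to 0.74 for DHX58, -0.37 to -0.18 for EIF2AK2, 0.08 to 0.21 for IFITM3 and -0.04 to -0.01 for ADAR, each moved over 1.5 times by 1 library. No paired analysis was possible because the control is a single library. Depth limits the 15 members with a mean under 100 counts.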
